A study of Homo sapiens with 6 samples.

Results

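Of the 7873 short hairpin RNAs (shRNAs) of a pooled lncRNA library, 505 (6.41%) were nearly absent from the plasmid pool before any cell received them. They were chosen by their measured counts: the read counts of the 3 libraries of the plasmid pool summed to 15 or less. The input group comprised these 3 libraries, sequenced from the pool itself. The selected group comprised 3 libraries made from the DNA of HUH7 cells, a human hepatocellular carcinoma line in long use, which had been exposed to the lentiviral pool, then placed on puromycin after 2 days for 4 days and cultured for 4 weeks. All selected cells carried a puromycin resistance marker on the same vector as the shRNA, and no selected library came from cells without the pool. The labels do not say whether libraries of a group came from separate infections or cultures, so p-values cover only how these libraries differ among themselves, possibly for technical reasons.

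In a pooled RNAi screen each cell receives a hairpin that is processed into a short guide RNA, and the guide directs the Argonaute complex to transcripts with a complementary stretch. A hairpin that slows growth becomes rarer in the final population, and sequencing of the integrated cassette reads this out. A fall can be measured only for a hairpin that was present at the start, so the composition of the plasmid pool sets which targets a screen of this kind can test. Several hairpins are made against each transcript because a single one may fail to silence its target or may silence others.

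The targets below show the members on which the results turn. Each is the sense target, written 5′ to 3′, and the capitals mark target positions 14 to 20, counted from the 5′ end, which pair with the seed of the guide. The first 5 reappeared in all 3 selected libraries with counts high among the members.
DPH5-DT base 183: tacatggacgtctTGAATATt
CROCCP2 base 200: gtggtgataggcgCTTGTAAt
ANKRD42-DT base 526: gcccggaacaaagGGATCAAt
LINC02421 base 30: tgcacaatggatcATGCAAAg
GALNT7-DT base 160: gccaggctgcagtGAGTCAAa
The next 5 belong to lncRNAs well known in cancer and were at or near 0 in all libraries.
HULC base 216: tgtactttctcccTGAATTAt
DANCR base 163: ataggaaagtgccTCTAATAa
MALAT1 base 531: agagctgtggagtTCTTAAAt
TUG1 base 1430: ccttcagagacacACAATAAa
TUG1 base 484: atgtctgataccaCCAAATAt
The last 4 belong to transcripts that the pool left with 0 or 1 shRNA above the limit.
DLEU2 base 431: tttggctctagtaAGTATTTa
DLEU2 base 535: atgtcaagggattACTTATAa
PCAT4 base 155: tatactggagtccTGTTAATa
PCAT4 base 235: acttgactaagagACAATATa
A base number is that of the first target base in the listed transcript. These transcripts are ENST00000454721 (DPH5-DT), ENST00000362058 (CROCCP2), ENST00000500634 (ANKRD42-DT), NR_110063 (LINC02421), ENST00000499322 (GALNT7-DT), NR_004855 (HULC), ENST00000425653 (DANCR), ENST00000508832 (MALAT1), ENST00000540687 and NR_002323 (TUG1, bases 1430 and 484), ENST00000458725 (DLEU2) and NR_026555 (PCAT4).

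In GRCh37, the DPH5-DT target matched chr1:101542985-101543005 on the plus strand, in exon 4 of the targeted transcript. The ANKRD42-DT target matched chr11:82903408-82903428 on the minus strand, in exon 2. The HULC target lay at chr6:8653951-8653971 and the DANCR target, in exon 2, at chr4:53579750-53579770, both on the plus strand. The MALAT1 target lay in exon 2 of its transcript at chr11:65270718-65270738, on the plus strand. Each of these 5 targets had no other exact match in the genome.

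Among the 505 members, 195 had no count in any input library and 72 had a sum of 1. The remaining 238 had sums of 2 to 15. The median sum was 1, beside 729 over all 7873 shRNAs. An input sum of 0 allows up to 3 counts over the 3 libraries, or 0.401 CPM, where CPM scales counts to the summed total of the group, and the median of all shRNAs was 97.3 CPM. At the limit the groups ran into each other. There were 18 shRNAs with a sum of 14 and 7 with 15 just inside it, and 12 with 16 and 14 with 17 just outside. The selected sums had a median of 8 at an input sum of 15, beside 8 at 16 and 9 at 17. The input libraries held 2323330 to 2612829 counts and the selected libraries 1525256 to 4013368, and intervals and limits from counts cover counting error only, since the PCR reads carry no molecular identifiers.

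The members were spread over every class of target. They made up 452 of 7242 shRNAs against lncRNAs (6.24%), 50 of 583 against protein-coding transcripts (8.58%) and 3 of 48 against reporter and resistance genes (6.25%). With an input sum of 0 the shares were 2.31%, 4.46% and 4.17%. Within the lncRNA targets the members made up 6.82% of shRNAs against ENST transcripts, 4.68% against NR_ transcripts and 5.13% against XR_ transcripts. These shares are descriptions of 1 pool.

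The protein-coding members fell on 25 of the 44 genes targeted. No gene was lost: each of the 25 kept at least 4 shRNAs above the limit. NR3C1, the glucocorticoid receptor, had 6 members of 75 shRNAs, and HNF4A, a transcription factor of hepatocyte identity, had 4 of 30. FOXM1, a transcription factor of the cell division programme, had 4 of 25. For genes of the microRNA pathway, 7 of 45 shRNAs were members (15.6%), beside 8.58% of all shRNAs against protein-coding transcripts. They came from 3 of 4 targeted genes, and DROSHA had no member. DGCR8, the partner of Drosha, had 3 of 10, DICER1, which cuts hairpins into short duplexes, had 2 of 15, and AGO2, the slicing Argonaute, had 2 of 10. KIF11, a motor protein of the mitotic spindle, had 1 of 5, with counts of 0, 0 and 0 in the input and 1, 0 and 0 in the selected libraries. The 3 reporter and resistance members targeted the neomycin and puromycin resistance genes and firefly luciferase, and each was counted in 1 selected library.

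For lncRNAs with a known role in hepatocellular carcinoma, 3 of 25 shRNAs were members (12%), beside 6.24% of all shRNAs against lncRNAs. All 3 genes of the list that the library targeted had 1. For HULC, a lncRNA highly expressed in liver cancer, the member was 1 of 5 shRNAs, at base 216, with input counts of 0, 1 and 0 and no selected count. For DANCR it was the shRNA at base 163, with no input count and 0, 0 and 1 selected counts. For MALAT1, an abundant nuclear lncRNA, it was the shRNA at base 531, which was at 0 in all 6 libraries. All 3 genes kept further shRNAs above the limit.

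In a broader list of cancer lncRNAs, 6 of 87 shRNAs were members (6.90%), from 4 of 8 targeted genes. This share was close to the 6.24% of all shRNAs against lncRNAs. Both TUG1 members were at 0 in all 6 libraries. MIR22HG, the host transcript of miR-22, had members at base 58 of NR_029494, with 1 input and 1 selected count in all, and at base 156 of NR_028504, with 1 input count and no selected count. The other members of the list targeted FTX and JPX. The FTX shRNA at base 202 of ENST00000455395 had input counts of 2, 4 and 1 and selected counts of 18, 7 and 18. The JPX shRNA at base 88 of ENST00000415215 had input counts of 5, 4 and 2 and selected counts of 13, 18 and 8. The JPX target differed at 2 bases from that of an shRNA with 1053 input and 914 selected counts, and the part of that neighbour in its counts was not tested.

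A partial list of snoRNA host genes, whose introns release small nucleolar RNAs, held SNHG1 to SNHG20, GAS5, ZFAS1 and EPB41L4A-AS1. Of 139 shRNAs against its genes, 10 were members (7.19%), from 6 of 10 targeted genes. This share was also close to the 6.24% of all shRNAs against lncRNAs. Outside the list, SNHG23 and SNHG26 had 1 member each of 5 shRNAs. SNHG5 had 4 of 27. At base 99 of ENST00000433843 its counts were 3, 3 and 2 in the input and 0, 1 and 0 in the selected libraries. Both SNHG6 members and the SNHG17 member were at 0 in all 6 libraries. The SNHG15 shRNA at base 275 of ENST00000584327 had input counts of 2, 2 and 5 and no selected count. SNHG9, with 1 member, had no input count and 2, 0 and 3 selected counts at base 57 of ENST00000531523. Of the study's 7 candidate lncRNAs, 5 were matched here by transcript identifier, with 24 shRNAs, and 2 of these shRNAs were members. Both, at base 32 of ENST00000510145 (LINC00491) and base 35 of ENST00000518090, were at 0 in all 6 libraries.

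The targets of members held slightly less G and C. The mean was 44.5% ± 8.34 (SD, 505 targets), beside 46.3% ± 7.95 over the 7368 other targets, and the median was 47.6% in both. At an input sum of 0 the median was 42.9%. Targets with at most 35% G and C made up 19.4% of members and 13.4% of the others. Over all bases and positions, the largest excess in members was T at position 2, found in 34.5% of members and 27.5% of the others, 6.93 percentage points.

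The difference in G and C was not seen among targets that resembled no other target of the library. For 4203 targets with at least 5 mismatches to any other, mean G and C was 42.9% ± 8.51 (SD) in 367 members and 43.0% ± 8.30 in the rest, with a median of 42.9% in both. Targets with at most 4 mismatches to another had more G and C, 49.8% ± 5.78 (SD) over 3670 targets. Only 27.3% of members lay among them, beside 47.9% of the other shRNAs. Within these targets the mean was 48.9% ± 6.07 (SD) in 138 members and 49.8% ± 5.76 in the rest. The medians were 47.6% and 52.4%. Among targets without a near copy, the largest excess in members was C at position 12, 29.7% beside 23.4%, or 6.34 percentage points. T at position 2 came next, 34.9% beside 28.7%, or 6.18 points. Both were picked as the largest over all bases and positions and were not tested. Over all targets with an input sum of 0, C at position 12 was found in 25.6%, beside 27.4% of all shRNAs that are not members. For T at position 2 these shares were 36.9% and 27.5%.

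Targets with a near copy in the library were seldom at an input sum of 0. None of the 1597 targets that differ from another by 1 base had an input sum of 0, which allows a share of up to 0.188%. Of the 4203 targets with at least 5 mismatches, 169 had a sum of 0 (4.02%). For targets 2, 3 and 4 mismatches from another the share at 0 was 0.188%, 2.05% and 2.91%. The 13 members with a neighbour at 1 mismatch had 0.606% to 7.84% of that neighbour's input counts, with a median of 2.33%. Whether reads of an abundant neighbour were assigned to the rarer copy was not tested. A pair that targets the snoRNA host gene ZFAS1 shows such neighbours, with capitals at the bases that differ.
ZFAS1 base 190 of NR_036659: TTgaaactggcgatggaatat
ZFAS1 base 252 of ENST00000428008: CAgaaactggcgatggaatat
The member at base 190 had input counts of 7, 6 and 1 and no selected count, and its neighbour had sums of 343 input and 505 selected counts.

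Repeated sequence was correspondingly rarer among the members. Of the 505 targets, 263 (52.1%) matched a single place in GRCh37 exactly, beside 36.0% of the others, and 59 (11.7%) matched more than 100 places, beside 32.0%. No exact match was found for 8.51% of members and 5.67% of the others; a target that spans a splice junction would give the same. None of the 7873 targets held a run of 4 equal bases, GAATTC or CTCGAG, the sites of EcoRI and XhoI. ACCGGT, the site of AgeI, was found in 4 targets and 0 members. The sites of BsmBI (CGTCTC or its reverse complement GAGACG) were found in 5 members (0.990%) and in 0.864% of all targets, and those of BbsI (GAAGAC or GTCTTC) in 2 members and in 79 of all targets.

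Of the 505 members, 287 (56.8%) had at least 1 count in the selected cells. They were seen in 1 selected library in 148 cases, in 2 in 65 and in all 3 in 74, and 218 were seen in none. Without selected replicate 1, 112 were seen in both libraries left. For shRNAs with input sums of 16 to 150, 97.2% of 817 were seen and 78.8% were seen in all 3 libraries. Above 150, all 6551 were seen and 99.8% in all 3. By library, 142 members were counted in selected replicate 1, 156 in replicate 2 and 202 in replicate 3, whose totals were 1525256, 3008556 and 4013368 counts.

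Presence in the selected cells followed the input sum even within the members. Of the 195 with an input sum of 0, 78 (40.0%) were seen and 4 were seen in all 3 libraries. Of the 310 with sums of 1 to 15, 209 (67.4%) were seen and 70 in all 3. Among those 310, 97 of 112 with a near copy at 4 or fewer mismatches were seen (86.6%) and 112 of 198 without one (56.6%), at median input sums of 8 and 4. Of the 156 members counted in all 3 input libraries, 56 were counted in all 3 selected libraries and 29 in none. In all, 117 members had no count in any of the 6 libraries.

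Most reappearances were small. The selected sum was 1 for 120 of the 287, and it had a median of 1 for members seen in 1 library, 5 in 2 libraries and 15 in 3. Members seen in 1 library had at most 1 count there in replicate 1, 3 in replicate 2 and 10 in replicate 3. The highest were LINC01748 (base 44 of ENST00000439156), with input counts of 3, 4 and 3 and selected counts of 0, 0 and 10, and base 36 of ENST00000518103, with 5, 1 and 4 followed by 0, 0 and 10. The next were PRKG1-AS1 (base 180 of ENST00000452247) and MIR503HG (base 138 of ENST00000457876), with 7 and 6 counts in selected replicate 3. At 5 counts there, 4 members were tied: base 100 of ENST00000584958, PWRN1 (base 68 of ENST00000569908), NEXN-AS1 (base 30 of NR_103535) and the shRNA against the neomycin resistance gene.

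The highest selected sum of a member was 169, beside a median of 826 over all shRNAs. The members were chosen for low input counts and those named here for high selected counts, so nothing is read from selected counts above input counts. DPH5-DT, a divergent transcript beside DPH5, had input counts of 4, 5 and 3 and selected counts of 33, 43 and 93 at base 183. CROCCP2, a pseudogene transcript, had 3, 6 and 5 followed by 17, 38 and 80 at base 200. ANKRD42-DT at base 526 had no input count and selected counts of 29, 25 and 41, at least 27.8-fold higher in CPM than a floor of 3 counts over the input group. The next highest selected sum among the 195 members without input counts was 11, for LINC00861 at base 54 of NR_038446, with 6, 0 and 5.

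The other members with the highest sums in all 3 selected libraries had 61 to 94 selected counts in all. LINC02421 (base 30) had input counts of 4, 4 and 6 and selected counts of 27, 35 and 22. GALNT7-DT (base 160) had 4, 5 and 2 followed by 17, 22 and 34. Base 203 of ENST00000567464 had 5, 3 and 5 followed by 15, 23 and 56. Base 210 of ENST00000429816 had 6, 2 and 6 followed by 40, 5 and 28. Base 103 of ENST00000427974 had 2, 2 and 3 followed by 1, 16 and 49. In both the groups overlapped through 1 selected library. Base 125 of ENST00000508358 had 4, 4 and 3 followed by 11, 9 and 46, and base 187 of ENST00000615401 had 5, 3 and 2 followed by 10, 17 and 34. CREB3, a transcription factor of the endoplasmic reticulum membrane, was seen in only 2 selected libraries. It had 1, 2 and 0 followed by 9, 0 and 63 at base 1101 of NM_006368.4.

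The test across the library reached few members. With edgeR's quasi-likelihood test, 7232 shRNAs whose mean count reached 10 were tested, and 12 members were among them. An shRNA low in the input passes that filter only if it is high after selection, and the lowest selected sum of a tested member was 59. By Benjamini-Hochberg adjusted p of at most 0.05, 10 of the 12 rose with a log2(fold change), input over selected, of -0.75 or less, beside 5.85% of all tested shRNAs, and 0 fell. Without input replicate 1, 2 or 3, the number that rose was 4 of 14, 5 of 14 and 4 of 13 members tested. Without the filter on low counts, 388 members were tested, of which 18 rose and 23 fell by at least 0.75. The shares over all shRNAs in these other fits are not given here. The rule and the filter used the same counts, so nothing is read from these numbers. The other 493 members were not tested.

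A complete loss would have been measurable for few members. With 0 selected counts, the exact 95% counting interval of the ratio of input to selected abundance has a lower bound of at least 2 from an input sum of 9, where the bound is 2.25. Below that sum were 409 members (81.0%). Of the 96 members at or above it, 17 had no selected count. With an input sum of 1 and no selected count, the lower bound was 0.0293. This interval covers counting error and leaves out the spread between libraries.

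Few lncRNAs were lost from the screen altogether. At least 1 member fell on 407 of 1543 lncRNA transcripts (26.4%): 365 had 1 member, 39 had 2 and 3 had 3. The number left with at least 2 shRNAs above the limit was 1513, of 1520 that were listed with at least 2. The 7 transcripts that dropped below 2 included ENST00000458725 (DLEU2, listed with 2 shRNAs and left with 0), which stands in the chromosomal region deleted in lymphocytic leukaemia. At base 431 its counts were 0, 0 and 0 followed by 1, 0 and 0, and at base 535 they were 3, 0 and 3 followed by 0, 0 and 0. Other transcripts of DLEU2 kept 20 shRNAs above the limit.

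The other 6 were left with 1 shRNA. NR_026555 (PCAT4) went from 3 to 1, with counts at base 155 of 0, 0 and 0 followed by 0, 1 and 0 and at base 235 of 4, 6 and 2 followed by 0, 0 and 0. ENST00000513393 (LINC02267) also went from 3 to 1, and its shRNA at base 29 had 3, 0 and 2 followed by 1, 19 and 2. ENST00000414002 (SNHG5), XR_253962, ENST00000522183 (CASC9) and ENST00000539294 (YTHDF3) went from 2 to 1. A further 2 transcripts, ENST00000469418 and ENST00000552602, were listed with a single shRNA, which was a member. The 3 transcripts with 3 members of 5 shRNAs kept 2, among them ENST00000447171 (PRR15-DT).

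The rule for candidate lncRNAs asked for at least 2 shRNAs with log2(fold change) of at least 1, or at least 3 with at least 0.75, at an adjusted p of at most 0.05. In the edgeR fit used here, 3 of the 407 lncRNAs with a member (0.737%) met this rule, beside 14 of 1136 without one (1.23%). The study used DESeq2 and named 7 candidates, so these 17 lncRNAs are not its list. Exactly 1 shRNA fell by at least 1 in 67 of the 407 (16.5%) and in 172 of the 1136 (15.1%), where 4.09% of all tested shRNAs fell by that size. These shares were not tested against each other. Without input replicate 1, 2 or 3, the 67 became 34, 40 and 34. Among the members of the 67, those of DPH5-DT (base 183) and of ENST00000615401 (base 187) were tested. Their selected counts, given above, were higher than their input counts, and they passed the filter only through these selected counts. The other members of the 67 were not tested, so whether they would have met the rule cannot be told.

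Among these 67, the falling shRNA had a log2(fold change) of 1.01 to 4.56, with a median of 1.33. HULC fell at base 196, from 363, 292 and 361 input counts to 75, 182 and 290 selected counts, a log2(fold change) of 1.11 ± 0.16 (SE, 3 libraries a group, edgeR adjusted p = 0.00187). The groups did not overlap. In raw counts selected replicate 3 was close to the lowest input library, but their totals were 4013368 and 2323330 counts. DANCR fell at base 109, from 202, 174 and 191 to 38, 145 and 129, a log2(fold change) of 1.05 ± 0.24 (SE, edgeR adjusted p = 0.00982), and its groups did not overlap. LINC01684 (base 485 of ENST00000453784) had the largest fall, from 39, 56 and 42 to 1, 5 and 0, a log2(fold change) of 4.56 ± 0.75 (SE, edgeR adjusted p = 0.00296). ENTPD3-AS1 (base 227 of ENST00000420850) fell from 77, 67 and 58 to 1, 1 and 14, by 3.89 ± 0.61 (SE, edgeR adjusted p = 0.00243).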

How the data were processed

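The deposited values are raw counts per shRNA for 3 input and 3 selected libraries. For these counts the authors used cutadapt 1.4.2 (trimming), BWA 0.7.10 (alignment to the library's hairpins) and SAMtools 1.3. Members and lists were chosen with earlier results of these data known. Presence means at least 1 count.

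Counts were normalized by TMM and tested with edgeR 4.0.16 in R 4.3.3 (quasi-likelihood test, no block, mean count of at least 10, Benjamini-Hochberg adjustment). The SE was obtained by dividing the log2(fold change) by the root of its F statistic. The script was tested on simulated data. Targets were compared without gaps with each other and searched exactly on both strands of GRCh37. Names came from the annotation, GENCODE release 44 mapped to GRCh37 or a RefSeq table. Intervals used scipy 1.17.1.

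The text names the 10 members with the highest selected sums in all 3 selected libraries, the 5 highest seen in 1, lost lncRNAs, and members of the study's candidates and of the lists, of which examples are given. Other genes were named after their values were seen. Alternatives were other limits, presence thresholds, RLE size factors, filters, DESeq2 1.42.0, the replicate block and each library left out.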

Additional observations from a re-analysis of the deposited data

How the results depend on the processing

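With a limit of 0 counts there were 195 members with a median G and C of 42.9%, 78 seen in the selected libraries and 4 in all 3, and 3 lncRNAs left with fewer than 2 shRNAs. With a limit of 30 counts, 140 were seen in all 3 and 42 were tested. Counting presence from at least 3 counts left 115 members seen and 29 in all 3, and from at least 10 counts 49 and 7. Leaving out 1 library, input or selected, gave 75 to 112 members in all selected libraries left, with 112 without selected replicate 1, the shallowest. Without a filter 388 members were tested. With a mean count of at least 100, 0 members were tested and 34 lncRNAs had a member and exactly 1 falling shRNA, beside 67. That number ranged from 34 to 80 when single libraries were left out, with 34 without input replicate 1, 40 without 2 and 34 without 3. The cause was not tested. The replicate number did not pair the samples (correlations of deviations of -0.00943, 0.00805 and -0.0306), and with the replicate block the number was 70 and 12 members were tested. In all, 46 of the other values stayed within 1.5 times the main count or the spread between libraries. A member unseen in selected replicate 1 had 1525256 counts in which to appear. In that library 142 members were seen, beside 156 in selected replicate 2 with 3008556 counts. The part of depth in presence was not tested.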

Other observations

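In the deposited tables, 92 of the 7873 shRNAs, from 46 transcripts, stand outside the numerical order of their identifiers. They include 2 of the 505 members, DPH5-DT at base 183 and ANKRD42-DT at base 526. These have the first and the third highest selected sums among the members. Whether the order bears on the counts was not tested.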
